A study of Mus musculus with 10 samples.

Results

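The genes of 5 voltage-sensing membrane proteins were followed in embryonic dorsal root ganglia (DRG): *Hcn2*, *Hcn3* and *Hcn4*, which encode pore subunits of hyperpolarization-activated cation channels, *Hvcn1*, which encodes the voltage-gated proton channel, and *Tmem266*, which encodes a voltage-sensor protein. They were chosen by name and protein family, with earlier results of these data known. All 5 were found among the 55414 Ensembl genes of the count tables. Bulk RNA-sequencing was done on DRG, which hold sensory neurons and glia, of 5 control and 5 *WD1* cKO mouse embryos at E18.5 (embryonic day), to ask how transcripts change when Dach1 is lost from the neural crest lineage. In *WD1* cKO embryos, both *Dach1* alleles carry a floxed exon and Cre is expressed from *Wnt1* regulatory sequence, which is active in neural crest. Controls were littermates with the same floxed alleles and no Cre, so a Cre transgene without floxed *Dach1* was not part of the comparison. The mice were of a mixed C57Bl/6J and CD1 background, and where the sample titles and the genotype entries of the labels name opposite groups, the titles were followed here. Control libraries held between 20465132 and 27528784 counted reads, and *WD1* cKO libraries between 19757596 and 34796562. Nothing states that embryos came from separate litters, so p-values measure the spread between these embryos.

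HCN channels open when the membrane hyperpolarizes, pass sodium and potassium, and open more readily when cAMP binds to their intracellular end, and in sensory neurons the current they carry adds to resting potential and repetitive firing. The proton channel encoded by *Hvcn1* lets acid out of cells and is best known in phagocytes, where it offsets the charge moved by NADPH oxidase. The protein encoded by *Tmem266* has a voltage-sensor domain related to that of the proton channel and no separate pore domain, and it is known from cerebellar neurons.

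The voltage sensor of all these proteins includes a segment, S4, in which basic residues recur at a regular spacing of 3 positions. The stretches that encode it are shown because they are what the 5 genes have in common and because the HCN genes are related enough that shared reads had to be checked. They are coding sequence of GENCODE transcripts of GRCm38, written 5′ to 3′ on the strand of the gene, with arginine and lysine codons in capitals.
Hcn2: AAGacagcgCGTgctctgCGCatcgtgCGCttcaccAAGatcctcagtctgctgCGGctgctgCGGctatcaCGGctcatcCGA
Hcn3: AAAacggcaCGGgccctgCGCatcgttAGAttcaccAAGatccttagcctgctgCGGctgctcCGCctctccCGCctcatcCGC
Hcn4: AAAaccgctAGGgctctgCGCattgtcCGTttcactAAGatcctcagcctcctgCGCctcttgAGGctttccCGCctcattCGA
Hvcn1: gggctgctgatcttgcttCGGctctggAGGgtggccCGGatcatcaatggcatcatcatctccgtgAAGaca
Tmem266: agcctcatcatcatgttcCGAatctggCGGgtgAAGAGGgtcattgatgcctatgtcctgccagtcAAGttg
The stretch of *Hcn2* lies within 1 coding exon on the plus strand (chr10:79724707-79724790), that of *Hcn3* within 1 coding exon on the minus strand (chr3:89152652-89152735) and that of *Hcn4* within 1 coding exon on the plus strand (chr9:58844197-58844280). Those of *Hvcn1* (chr5:122238589-122240236) and *Tmem266* (chr9:55415030-55418030), both on the plus strand, are each joined from 2 coding exons with an intron between them. Each HCN stretch of 84 bases held 9 arginine or lysine codons, and each stretch of 72 bases of the other genes held 3 such codons at the recurring spacing, within 4 in *Hvcn1* and 5 in *Tmem266* in all. *Hcn2* and *Hcn3* differed at 16 of the 84 bases, *Hcn2* and *Hcn4* at 19, and *Hcn3* and *Hcn4* at 20, while *Hvcn1* and *Tmem266* were identical at 41 of 72 bases.

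Over their whole transcripts, *Hcn2* and *Hcn4* shared no run of 50 bases with any other annotated gene, and *Tmem266* shared 0.208% of such runs and none of 100 bases. In *Hcn3* 15.8% and in *Hvcn1* 39.7% of runs of 50 bases also occurred in another gene. The annotation places 711 of the 4154 exon bases of *Hcn3* opposite exons of *Pklr*, a pyruvate kinase gene, and 1574 of the 3563 exon bases of *Hvcn1* opposite exons of *Tctn1*, a gene of the ciliary transition zone. The strand setting of the counting is not stated, so reads of these shared bases cannot be assigned with certainty, and the counts of *Hcn3* and *Hvcn1* carry that uncertainty. *Pklr* was at 0.417 ± 0.404 CPM (reads per 1000000 counted reads after scaling; SD, n = 5) in control and 0.640 ± 0.727 CPM (SD, n = 5) in *WD1* cKO embryos, far below *Hcn3*, whereas *Tctn1* was at 28.3 ± 1.97 CPM (SD, n = 5) and 28.6 ± 2.25 CPM (SD, n = 5), far above *Hvcn1*.

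The deleted gene was examined first as a check of the titles. *Dach1* (ENSMUSG00000055639) was at 35.1, 38.5, 41.6, 37.1 and 37.4 CPM in control replicates 1 to 5 and at 19.1, 20.7, 19.5, 20.3 and 20.4 CPM in *WD1* cKO replicates 1 to 5. The groups did not overlap and followed the titles. Its log2 fold change was -0.92 (95% interval -1.03 to -0.81, adjusted p = 5.48e-06). The counts cover the whole gene and not only the floxed exon. The remaining level, 52.8% of control, therefore does not measure intact transcript or protein. By immunostaining, the study reported Dach1 extinguished in this line by E18.5. Adjusted p-values are by the Benjamini-Hochberg method over 17490 genes, those counted 10 or more times in 5 or more libraries, in the quasi-likelihood test of edgeR.

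One axis of variation did not follow the genotype. On the first principal component, which held 28.4% of the variance of log2 CPM, replicates 4 and 5 of both groups lay between 20.3 and 23.6, and replicates 1 to 3 between -26.6 and -0.612. The labels give no batch for these numbers. Some of the values below, but not all that differ, are given for both sets. The summed level of 6 erythroid genes was from 155 to 243 CPM in the 4 libraries numbered 4 and 5 and from 510 to 2471 CPM in the other 6. Control replicate 3 stood apart in the summed level of 5 spinal cord genes, at 12.0 CPM, where the rest of the control libraries had 0.110 to 0.484 CPM. Markers of the labelled tissue were present in every library, with 10 sensory neuron genes summing to between 7047 and 7624 CPM and 8 glia genes to between 982 and 1268 CPM.

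Levels of different genes were compared per kilobase of exon. *Hcn3* was the highest of the 5 genes, at 16.4 ± 1.73 CPM per kilobase (SD, n = 5) in control and 15.7 ± 0.819 (SD, n = 5) in *WD1* cKO embryos. *Hcn4* followed at 6.97 ± 0.471 and 6.60 ± 0.600, *Hcn2* at 5.65 ± 0.505 and 6.01 ± 0.587, *Tmem266* at 1.52 ± 0.0737 and 1.23 ± 0.0900, and *Hvcn1* at 0.126 ± 0.0360 and 0.156 ± 0.0388 CPM per kilobase (SD, n = 5 per group, control first). *Hcn3* exceeded *Hcn4*, *Hcn2* exceeded *Tmem266*, and *Tmem266* exceeded *Hvcn1* in 10 of 10 libraries with no overlap of the ranges. *Hcn4* exceeded *Hcn2* in 8 of 10 libraries, and the ranges of these neighbours overlapped, so their order did not hold beyond the spread. The per-length level of *Hcn3* was from 1.96 to 2.83 times that of *Hcn4* across the 10 libraries. Of the summed per-length level of the 3 HCN genes, *Hcn3* made up 56.4 ± 2.97% in control and 55.5 ± 1.05% in *WD1* cKO embryos (SD, n = 5 per group).

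**Figure D1:**
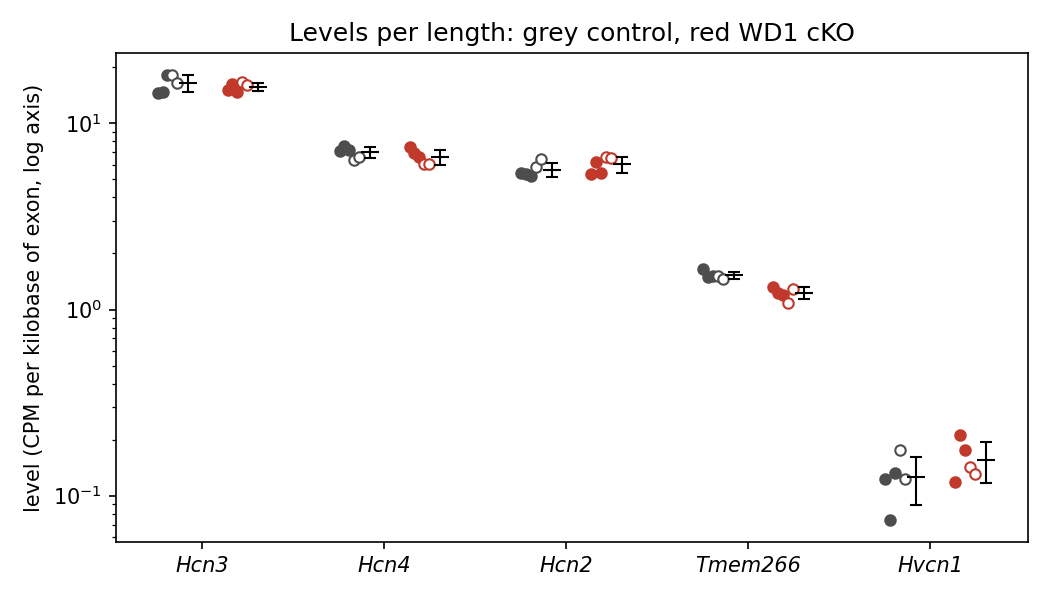
Level of each gene per kilobase of exon on a log axis, with 1 point per library (grey control, red *WD1* cKO, filled for replicates 1 to 3, open for replicates 4 and 5) and bars for the mean and SD of 5 libraries. *Hcn3* is highest in every library, *Hcn4* and *Hcn2* overlap, and *Hvcn1* lies lowest.

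In the edgeR test none of the 5 genes reached an adjusted p-value (Benjamini-Hochberg) under 0.05, where 0.0400% of the 17490 genes tested did, and none did with DESeq2's Wald test. Of the 5, 3 had a negative and 2 a positive log2 fold change. One gene, *Tmem266*, had an unadjusted p-value under 0.05, against 4.50% of all genes. The same gene passed the study's cut-off, a log2 fold change beyond 0.15 in either direction at an unadjusted p-value under 0.005, which 0.383% of all genes passed in either direction and 0.177% on the lower side. These shares are of edgeR p-values, while the study used DESeq2, so they do not count its own list. *Tmem266* was also the 1 gene of the 5 whose *WD1* cKO libraries all lay below the control libraries, a pattern found in 0.566% of all genes, while none of the 5 had all *WD1* cKO libraries above control, against 0.497%. The study had picked *Tmem266* from these same libraries, so these counts are no independent evidence about it. In bulk samples, fewer cells of a type and less RNA per cell cannot be told apart. In stained sections of thoracic DRG from this line at E18.5, the study reported no difference in the number of Islet1-positive neurons. It reported none for general subtype markers either. The part of cell numbers in the *Tmem266* difference was not tested.

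*Hcn2* (ENSMUSG00000020331, chromosome 10) encodes a subunit that responds strongly to cAMP. It was at 17.4, 17.0, 16.6, 18.7 and 20.5 CPM in control replicates 1 to 5 and at 17.1, 19.7, 17.4, 21.0 and 20.9 CPM in *WD1* cKO replicates 1 to 5. The groups overlapped, and replicates 4 and 5 were the highest libraries within each group. Its level was 18.0 ± 1.61 CPM (SD, n = 5) in control and 19.2 ± 1.87 CPM (SD, n = 5) in *WD1* cKO embryos, a log2 fold change of 0.089 (95% interval -0.083 to 0.26, adjusted p = 1.00 in the edgeR test; two-sided exact permutation p = 0.294). This interval spans levels from 94.4% to 120% of control.

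*Hcn3* (ENSMUSG00000028051, chromosome 3) encodes a subunit with little response to cAMP. It was at 60.4, 61.4, 75.2, 75.2 and 68.5 CPM in control and at 62.6, 67.3, 60.9, 69.1 and 66.7 CPM in *WD1* cKO replicates 1 to 5. All *WD1* cKO libraries lay within the range of the control libraries, which spread more widely. The means were 68.1 ± 7.17 CPM (SD, n = 5) in control and 65.3 ± 3.40 CPM (SD, n = 5) in *WD1* cKO embryos, with a log2 fold change of -0.062 (95% interval -0.21 to 0.083, adjusted p = 1.00 from the same edgeR test; two-sided exact permutation p = 0.508). The interval spans 86.7% to 106% of control.

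*Hcn4* (ENSMUSG00000032338, chromosome 9) encodes the slowly opening, cAMP-sensitive subunit known from the cardiac pacemaker. It was at 43.6, 46.1, 44.2, 39.1 and 40.3 CPM in control and at 45.6, 42.2, 40.1, 37.0 and 36.9 CPM in *WD1* cKO replicates 1 to 5. Replicates 4 and 5 were the lowest libraries of each group, and the groups overlapped, with 2 *WD1* cKO libraries below the lowest control library. The means were 42.7 ± 2.88 CPM (SD, n = 5) in control and 40.4 ± 3.67 CPM (SD, n = 5) in *WD1* cKO embryos, and the log2 fold change was -0.080 (95% interval -0.22 to 0.064, adjusted p = 1.00 from the same edgeR test; two-sided exact permutation p = 0.254). The interval spans 85.6% to 105% of control.

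*Tmem266* (ENSMUSG00000032313, chromosome 9) lies on the same chromosome as *Hcn4*, with 53 protein-coding genes between them in the GRCm38 annotation. It was at 7.75, 7.06, 7.11, 7.14 and 6.82 CPM in control and at 6.23, 5.81, 5.66, 5.13 and 6.06 CPM in *WD1* cKO replicates 1 to 5, on 101 to 210 reads per library. The groups did not overlap, with all 5 *WD1* cKO libraries below the lowest control library, and *WD1* cKO replicate 4, the shallowest library, was the lowest. Its level in *WD1* cKO embryos was 80.7% of control (95% interval 72.2% to 90.3%), a log2 fold change of -0.31 (95% interval -0.47 to -0.15) with an unadjusted p of 0.00128 and a Benjamini-Hochberg adjusted p of 0.784 in the edgeR test. By unadjusted p it ranked 28 of the 17490 genes. The log2 fold change was -0.31 within replicates 1 to 3 and -0.31 within replicates 4 and 5, where the edgeR p-values were 0.0141 and 0.0609, above the study's cut-off with fewer libraries. With the level of *Xist*, a transcript of the inactive X chromosome, as a covariate the log2 fold change was -0.29 and the p-value 0.00560, also above 0.005.

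*Hvcn1* (ENSMUSG00000064267, chromosome 5) rested on few reads, with 9, 6, 10, 17 and 10 counts in control and 10, 20, 19, 10 and 16 counts in *WD1* cKO replicates 1 to 5. Scaled to depth, these were 0.439, 0.265, 0.471, 0.626 and 0.440 CPM in control and 0.421, 0.760, 0.629, 0.508 and 0.462 CPM in *WD1* cKO libraries. The groups overlapped, with 2 *WD1* cKO libraries above the highest control library. The summed counts were 52 in control (exact Poisson 95% interval 38.8 to 68.2) and 75 in *WD1* cKO libraries (59.0 to 94.0), intervals that cover counting error only. The log2 fold change was 0.30 (95% interval -0.25 to 0.85, adjusted p = 1.00 from the same edgeR test; two-sided exact permutation p = 0.222), which spans 83.8% to 180% of control, so no difference was shown. Its sign turned to -0.17 within replicates 4 and 5, and with *Xist* as a covariate it was 0.53.

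**Figure D2:**
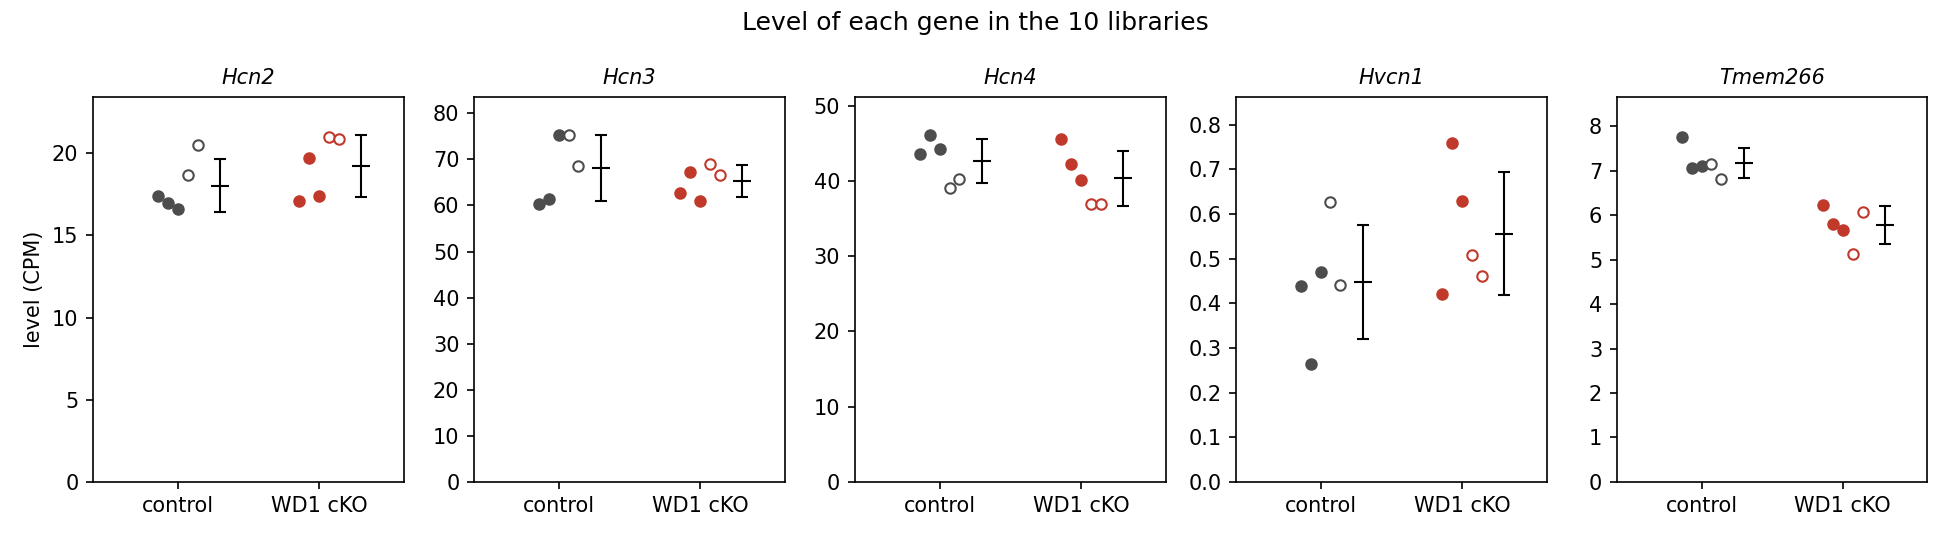
Level of each gene in CPM in each library, with control in grey and *WD1* cKO in red, filled points for replicates 1 to 3 and open points for replicates 4 and 5, and bars for the mean and SD of 5 libraries. *Tmem266* is the 1 panel in which the groups do not overlap, and the open points lie higher on average for *Hcn2* and lower for *Hcn4* in both groups.

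**Figure D3:**
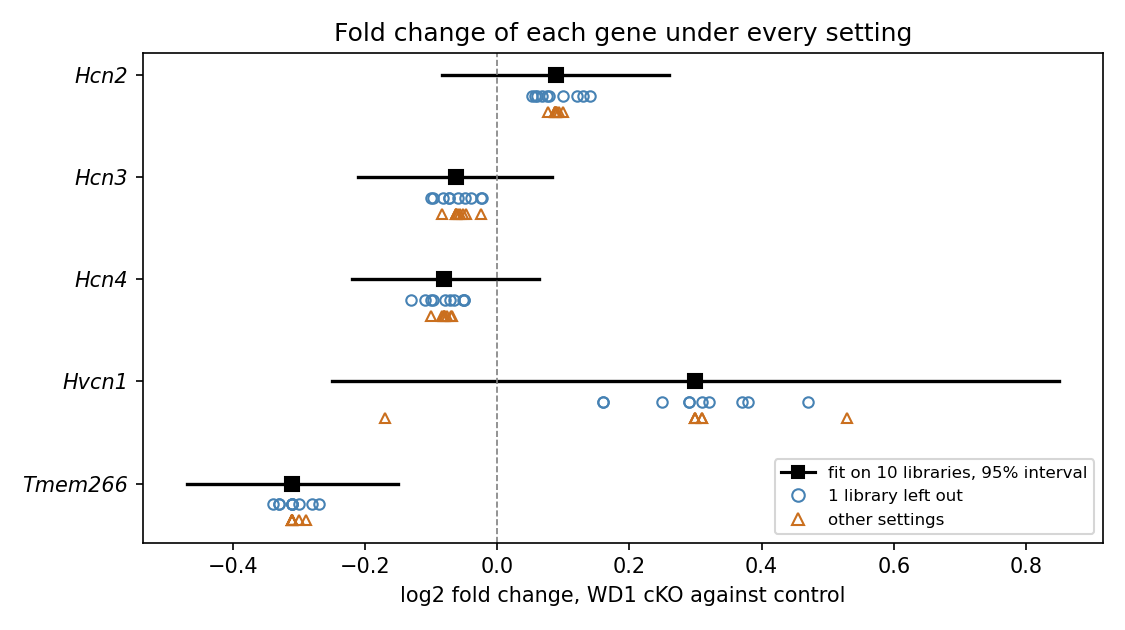
Log2 fold change of each gene in *WD1* cKO against control embryos, with a square and line for the edgeR fit on 10 libraries and its 95% interval, circles for fits without 1 library and triangles for the other settings. The interval of *Tmem266*, -0.47 to -0.15, lies below 0, and that of *Hvcn1*, -0.25 to 0.85, is the widest.

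The mean levels of *Hcn2* and *Hcn4* differed in opposite directions between replicates 1 to 3 and replicates 4 and 5, in both genotypes. These sets were seen on the first principal component of the same libraries. *Hcn2* was at 17.0 CPM in control and 18.1 CPM in *WD1* cKO libraries on average in replicates 1 to 3, and at 19.6 and 20.9 CPM in replicates 4 and 5. *Hcn4* was at 44.6 and 42.6 CPM in replicates 1 to 3 and at 39.7 and 37.0 CPM in replicates 4 and 5, in the same order of groups. The ratio of *Hcn4* to *Hcn2* per kilobase was from 1.12 to 1.41 in the 6 libraries numbered 1 to 3 and from 0.922 to 1.09 in the 4 numbered 4 and 5. These ranges did not overlap, which held for the ratio of 1 of the 10 pairs of genes, while for each of the 5 genes alone the 2 sets of libraries overlapped (*Hcn2* 16.6 to 19.7 and 18.7 to 21.0 CPM, *Hcn4* 40.1 to 46.1 and 36.9 to 40.3 CPM). Of single genes, 11.2% of all tested had levels that did not overlap between these sets, and the share among ratios of other gene pairs was not computed. Between genotypes the ratio was 1.25 ± 0.179 (SD, n = 5) in control and 1.11 ± 0.200 (SD, n = 5) in *WD1* cKO embryos, and these ranges overlapped. What sets replicates 4 and 5 apart is not given by the labels and was not tested.

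**Figure D4:**
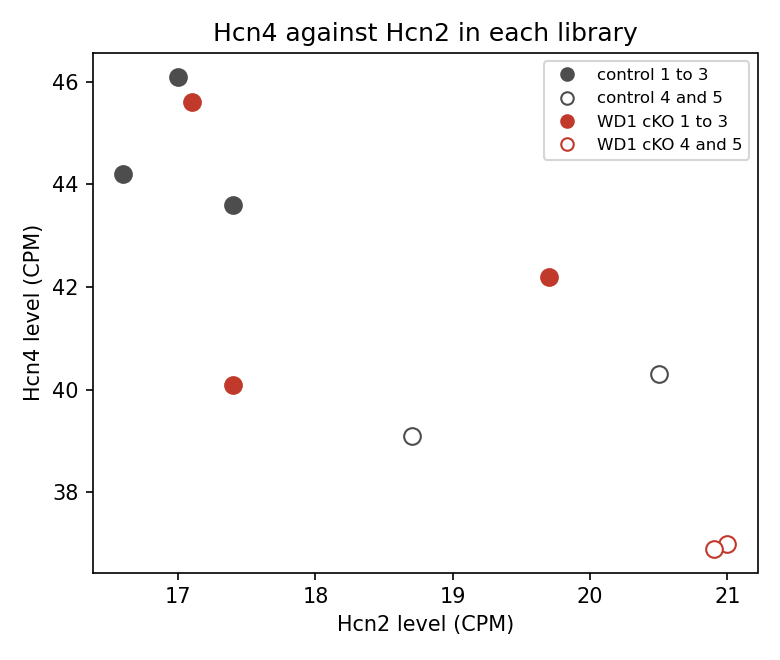
Level of *Hcn4* against level of *Hcn2*, both in CPM, with 1 point per library, control in grey, *WD1* cKO in red, and open points for replicates 4 and 5. The open points lie at 18.7 to 21.0 CPM of *Hcn2* and 36.9 to 40.3 CPM of *Hcn4*, and the filled ones at 16.6 to 19.7 and 40.1 to 46.1 CPM, so on each axis the 2 sets overlap.

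Relations were computed on log2 CPM after removal of group means, for the 10 pairs of genes and for each gene against the summed CPM of sensory neuron, glia, macrophage and spinal cord markers. The permutations moved the deviations from group means freely between the 2 groups, so the p-values of relations are approximate. None of these 30 relations had an adjusted p-value under 0.05 from the permutation test of Pearson's r, and 6 had an unadjusted one. *Hcn4* against the glia sum gave r = -0.863 (permutation p = 0.00169, adjusted p = 0.0507; Spearman's rho = -0.830, permutation p = 0.00490, adjusted p = 0.0735) over 10 libraries, and r = -0.687 without the 2 libraries farthest from the median. *Hcn2* against the same sum gave r = 0.821 (permutation p = 0.00433, adjusted p = 0.0649; Spearman's rho = 0.855, permutation p = 0.00267, adjusted p = 0.0735), and r = 0.775 without those 2. *Hcn2* against *Hcn4* gave r = -0.784 (permutation p = 0.0114, adjusted p = 0.0979; Spearman's rho = -0.709, permutation p = 0.0271, adjusted p = 0.162), and r = -0.722 without the 2 farthest libraries. The other 3 were the macrophage sum with *Hcn4*, at r = -0.772 (permutation p = 0.0130, adjusted p = 0.0979; rho = -0.721, permutation p = 0.0232, adjusted p = 0.162; r = -0.852 without the 2 farthest), the glia sum with *Hcn3*, at r = 0.716 (permutation p = 0.0218, adjusted p = 0.122; rho = 0.661, permutation p = 0.0444, adjusted p = 0.222; r = 0.718 without 2), and the sensory neuron sum with *Hcn2*, at r = 0.685 (permutation p = 0.0245, adjusted p = 0.122; rho = 0.709, permutation p = 0.0269, adjusted p = 0.162; r = 0.596 without 2).

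Because replicates 4 and 5 stand apart, these values pool 2 sets of libraries. For relations, exact means only that every order of the 6 libraries was used, and those p-values are approximate too. Within the 6 libraries numbered 1 to 3, *Hcn4* against glia had r = -0.605 (exact permutation p = 0.200; rho = -0.429, exact permutation p = 0.419), and *Hcn2* against glia had r = 0.674 (exact permutation p = 0.136; rho = 0.714, exact permutation p = 0.136). For *Hcn2* against *Hcn4* in this set, r was -0.200 (exact permutation p = 0.689; rho = -0.143, exact permutation p = 0.803). The other 3 had r = -0.577 (exact permutation p = 0.225; rho = -0.371, exact permutation p = 0.497), 0.623 (exact permutation p = 0.183; rho = 0.429, exact permutation p = 0.419) and 0.660 (exact permutation p = 0.156; rho = 0.714, exact permutation p = 0.136), in the order above. The relation of *Hcn2* to *Hcn4* therefore did not hold within that set, and the set of 4 libraries was too small to test. Among replicates 1 to 3, *Hvcn1* against glia had r = 0.924 (exact permutation p = 0.00972, adjusted p = 0.292; rho = 0.943, exact permutation p = 0.0167, adjusted p = 0.500). Over 10 libraries the same relation had r = 0.470 (permutation p = 0.170, adjusted p = 0.397; rho = 0.370, permutation p = 0.297, adjusted p = 0.728), and without the 2 farthest libraries r was -0.161, so it did not hold. *Tmem266* had r = 0.157 with the sensory neuron sum (permutation p = 0.658, adjusted p = 0.790; rho = 0.224, permutation p = 0.537, adjusted p = 0.729), and r = 0.136 without the 2 farthest libraries. With the glia sum it had r = -0.548 (permutation p = 0.0997, adjusted p = 0.397; rho = -0.333, permutation p = 0.349, adjusted p = 0.729), and r = -0.497 without the 2 farthest.

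Cell types that could carry these transcripts were followed by their markers. All 10 macrophage genes passed the filter on low counts, and their sum was 101 ± 6.73 CPM (SD, n = 5) in control and 98.6 ± 7.94 CPM (SD, n = 5) in *WD1* cKO embryos, with *Mrc1* the most abundant at 24.1 ± 4.02 and 23.6 ± 3.54 CPM. Macrophage markers were thus present in each library, with a sum from 89.1 to 109 CPM, while 2 of 4 B cell genes passed the filter and their list summed to at most 1.84 CPM, led by *Cd79b* at 0.497 ± 0.292 and 0.508 ± 0.123 CPM. The macrophage sum and *Hvcn1* had r = 0.247 over 10 libraries (permutation p = 0.488, adjusted p = 0.681; Spearman's rho = 0.261, permutation p = 0.469, adjusted p = 0.729), and r = 0.791 without the 2 libraries farthest from the median of the macrophage sum, so the value depended on those libraries. Within replicates 1 to 3 it was r = 0.156 (exact permutation p = 0.808; rho = -0.371, exact permutation p = 0.497). The neutrophil sum reached 23.0 CPM in *WD1* cKO replicate 2, the library with the highest *Hvcn1* level, while the rest of the group had 2.91 to 4.59 CPM, and it was 19.4 CPM in control replicate 1, where *Hvcn1* was at 0.439 CPM. Its most abundant gene was *S100a9*, at 11.4 CPM in that *WD1* cKO library, and the part of these cells in the *Hvcn1* count was not tested.

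The summed level of the sensory neuron genes was 7472 ± 242 CPM (SD, n = 5) in control and 7334 ± 192 CPM (SD, n = 5) in *WD1* cKO embryos, with *Prph* the most abundant at 2191 ± 103 and 2172 ± 46.9 CPM. For the sum of 7 A-LTMR genes, which mark low-threshold mechanoreceptors, the values were 1069 ± 66.2 and 1096 ± 40.5 CPM (SD, n = 5 per group), for 4 proprioceptor genes 573 ± 64.0 and 596 ± 54.1 CPM, and for 8 nociceptor genes 3467 ± 340 and 3376 ± 173 CPM. *Ret* led the A-LTMR list at 747 ± 77.0 and 791 ± 37.1 CPM, *Ntrk3* the proprioceptor list at 316 ± 25.1 and 312 ± 23.4 CPM, and *Scn10a* the nociceptor list at 1496 ± 144 and 1483 ± 58.4 CPM. Each sum is weighted to its most abundant gene, so genes were also counted one by one. Of the 7 A-LTMR genes, some of which the study picked from these libraries, 4 had an unadjusted p-value under 0.05 in the edgeR test, 2 lower and 2 higher in *WD1* cKO embryos, and 1 of them also passed after adjustment. The same unadjusted threshold was passed by 2 of 10 sensory neuron, 0 of 4 proprioceptor and 1 of 8 nociceptor genes, the 3 of them lower, and by 4.50% of all genes tested. The part of these subtypes in the *Tmem266* difference was not tested. The groups overlapped for each of these sums, and the sensory neuron list shares genes with the subtype lists, such as *Ntrk2* and *Ntrk3*. The glia sum was 1098 ± 67.6 CPM in control and 1140 ± 115 CPM in *WD1* cKO embryos, led by *Mbp* at 219 ± 10.3 and 233 ± 36.7 CPM, and the groups overlapped as well. Endothelial genes summed to 239 ± 17.2 and 240 ± 23.7 CPM with *Cdh5* the most abundant, connective tissue genes to 4591 ± 663 and 4957 ± 337 CPM with *Col3a1*, muscle genes to 108 ± 72.9 and 71.7 ± 26.4 CPM with *Acta1*, and erythroid genes to 1104 ± 988 and 556 ± 385 CPM with *Hbb-bs*. Of the 5 connective tissue genes, 1 had an unadjusted p-value under 0.05 in the edgeR test and was higher in *WD1* cKO embryos. No glia, endothelial, muscle or erythroid gene of the lists had one.

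The genes whose levels across the 10 libraries were most like each of the 5 were found by Pearson's r of log2 CPM among 12741 genes counted 100 times or more on average, as a description. For *Tmem266* they included *Map1lc3a* (r = 0.967), an autophagy gene, and *Mef2c* (r = 0.936), a transcription factor gene, and r was 0.949 and 0.964 for them within replicates 1 to 3. *Map1lc3a* was at 191, 177, 182, 186 and 177 CPM in control and at 166, 169, 158, 150 and 163 CPM in *WD1* cKO replicates 1 to 5. As for *Tmem266*, *WD1* cKO libraries of *Map1lc3a* and *Mef2c* all lay below control libraries, so the genotype difference that these genes have in common enters their r. The log2 fold changes were -0.18 for *Map1lc3a* and -0.39 for *Mef2c* in the edgeR fit.

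For the HCN genes the most like genes differed from one to the next. *Hcn2* was most like *Extl2* (r = 0.972), *Cyp2j6* (r = 0.966) and *Epdr1* (r = 0.953), *Hcn3* like *Lrp10* (r = 0.957), *Atp13a2* (r = 0.943) and *Nectin1* (r = 0.942), and *Hcn4* like *Nhlh2* (r = 0.974), a neuronal transcription factor gene, *Cntn2* (r = 0.960), a neural adhesion gene, and *2810013P06Rik* (r = 0.958). The groups overlapped for each of these 9 genes. Within replicates 1 to 3, r was 0.936, 0.894 and 0.911 for those like *Hcn2* and 0.949, 0.976 and 0.918 for those like *Hcn3*. For those like *Hcn4* it was 0.962, 0.934 and 0.845, in the order above. Levels of *Extl2*, *Epdr1*, *Nhlh2*, *Cntn2* and *2810013P06Rik* did not overlap between replicates 1 to 3 and replicates 4 and 5. That difference enters their r over all libraries. *Hvcn1* was most like *Pdgfrb* (r = 0.939), a receptor gene of pericytes and fibroblasts, *Ak4* (r = 0.884), which fell to r = 0.533 without the 2 farthest libraries, and *Ift122* (r = 0.876), a cilium gene, on its 6 to 20 reads per library.

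The 2 nearest annotated genes on each side of the 5 genes were compared as well. Of these 20 genes, 12 passed the filter on low counts, and 0 of the 12 reached a Benjamini-Hochberg adjusted p-value under 0.05 in the edgeR test or in DESeq2's Wald test. One of the 12, *Etfa*, next to *Tmem266*, had an unadjusted p-value under 0.05, a threshold that 4.50% of all genes passed, with 65.0 ± 2.07 CPM in control and 68.9 ± 2.54 CPM in *WD1* cKO embryos (SD, n = 5 per group). Its groups overlapped, and its log2 fold change of 0.084 (unadjusted p = 0.0359 and adjusted p = 1.00 from the edgeR test) was opposite in sign to that of *Tmem266*. *Nrg4*, on the other side of *Tmem266*, was at 0.14 on the log2 scale, *Bsg* and *Polrmt* beside *Hcn2* at -0.0098 and -0.050, *Clk2* beside *Hcn3* at -0.017, *Neo1* beside *Hcn4* at 0.0019, and *Ppp1cc* and *Tctn1* around *Hvcn1* at 0.064 and 0.013.

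Proteins that bind HCN subunits control their traffic and gating, among them the TPR protein of *Pex5l* and the adaptors of *Apba2* and *Tamalin*. Here and in the lists that follow, no gene passed 0.05 after Benjamini-Hochberg adjustment, either with edgeR or with DESeq2's Wald test. Of 13 binding protein genes 12 were tested, and 0 reached an adjusted p-value under 0.05 while 1 had an unadjusted one, where 4.50% of all genes did. Their median log2 fold change was -0.026, with 9 lower and 3 higher, against a median of 0.00022 over all genes tested, of which 8719 were lower and 8771 higher. *Apba2*, which encodes a Munc18-binding adaptor, was at 126 ± 4.56 CPM in control and 120 ± 2.59 CPM in *WD1* cKO embryos (SD, n = 5 per group), and 3 of 5 *WD1* cKO libraries were below the lowest control library. Its log2 fold change was -0.073 (unadjusted p = 0.0409 and adjusted p = 1.00 from the edgeR test). *Flna*, which encodes the actin cross-linker filamin A, was the most abundant at 740 ± 42.3 and 726 ± 19.3 CPM, with a log2 fold change of -0.028. *Kcne2* was not tested.

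Adenylyl cyclases, phosphodiesterases and cAMP effectors set the signal to which HCN channels respond. All 33 genes of this list were tested, with 16 lower and 17 higher, a median log2 fold change of 0.0038 and a median absolute one of 0.034, against 0.053 over all genes. In the edgeR test, as in DESeq2's, 0 of them had an unadjusted p-value under 0.05, against 4.50% of all genes in the edgeR test. *Prkar1a*, a regulatory subunit gene of protein kinase A and the most abundant, was at 680 ± 43.9 CPM in control and 682 ± 24.7 CPM in *WD1* cKO embryos (SD, n = 5 per group). Of the 6 cyclic nucleotide-gated channel genes, relatives of the HCN genes, 2 were tested and neither had an unadjusted p-value under 0.05. *Cngb1* was the more abundant at 5.35 ± 0.846 and 5.59 ± 0.520 CPM.

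NADPH oxidase moves electrons across phagocyte membranes, and sodium proton exchangers export acid by a route other than the proton channel. Of 9 NADPH oxidase genes 7 were tested, with 5 lower and 2 higher, a median log2 fold change of -0.074, and 0 with an unadjusted p-value under 0.05, against 4.50% of all genes. The sign of this median was not stable, as it ran from -0.14 to 0.045 when 1 library was left out and was 0.0052 within replicates 1 to 3, -0.012 within replicates 4 and 5 and 0.028 with *Xist* as a covariate. *Cyba*, the membrane subunit gene p22phox, was the most abundant at 8.46 ± 0.812 CPM in control and 7.78 ± 0.895 CPM in *WD1* cKO embryos (SD, n = 5 per group). Of 9 exchanger genes 8 were tested, with 4 lower and 4 higher and a median log2 fold change of 0.019. The sign of this median was not stable either, as it turned in 7 of 19 alternatives. Of the 8 genes, 1 had an unadjusted p-value under 0.05 in the edgeR test, where 4.50% of all genes did. *Slc9a5*, which encodes a neuronal exchanger, was at 27.9, 26.9, 29.9, 28.8 and 30.1 CPM in control and at 25.0, 23.4, 26.1, 25.5 and 27.5 CPM in *WD1* cKO replicates 1 to 5. Among these, 4 of 5 *WD1* cKO libraries were below the lowest control library and *WD1* cKO replicate 5 lay within the control range. Its log2 fold change was -0.17 (95% interval -0.28 to -0.057), with an unadjusted p of 0.00664 and a Benjamini-Hochberg adjusted p of 1.00 in the edgeR test.

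**Figure D5:**
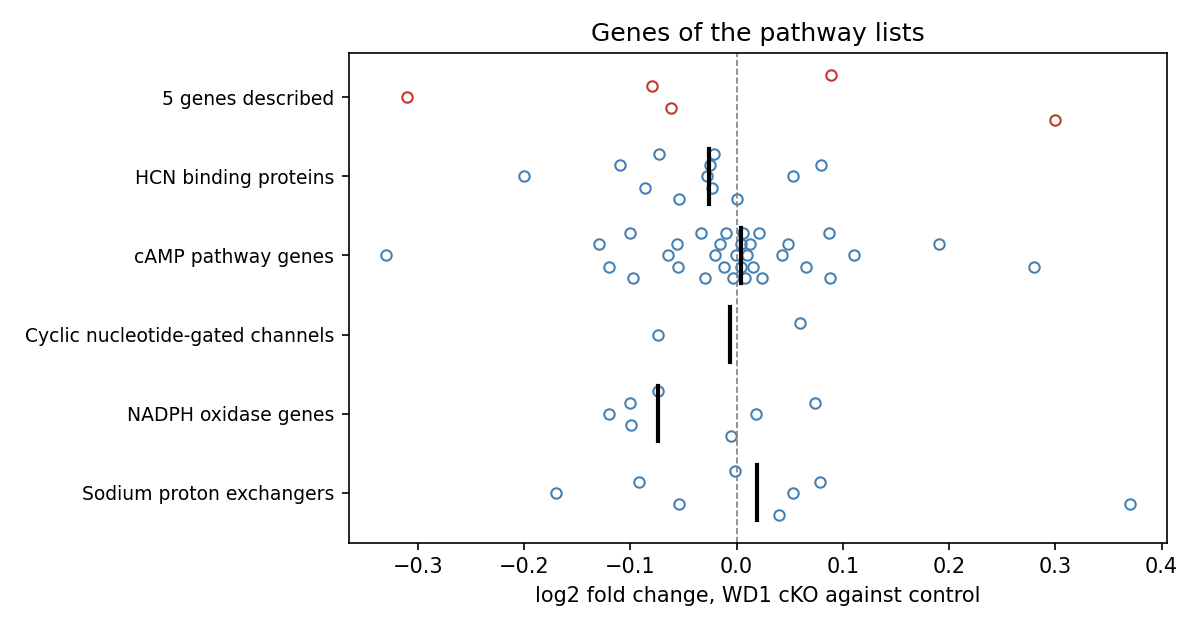
Log2 fold change in *WD1* cKO against control embryos of each tested gene of the 5 pathway lists (blue) and of the 5 genes described (red), with a black bar at the median of each list and a dashed line at the median of all genes tested. The list medians lie between -0.074 and 0.019, close to the median of all genes.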

How the data were processed

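The authors made stranded mRNA libraries, mapped reads to GRCm39 using STAR 2.7.8a, and deposited unnormalized counts per gene from featureCounts 2.0.1. How that step treated multi-mapping reads is not given in the sources used here. Names, exon lengths, gene order and coding sequence came from the GENCODE annotation of GRCm38, where 52081 of 55414 identifiers had a symbol. Counts were scaled by TMM and tested with edgeR 4.0.16 (quasi-likelihood, no covariate) in R 4.3.3, and alternatives included DESeq2 1.42.0. Two-sided exact permutation tests of mean log2 CPM (prior count 1) covered 252 splits, with 0.00794 as the smallest p. Relations used 100000 permutations. Within groups, all pairs of libraries differed beyond sampling noise. Members and lists were chosen with earlier results of these data known. Named genes were the 5 genes, *Dach1*, the most abundant gene of each list, pathway genes with an unadjusted p-value under 0.05 (at most 6 per list), flanking genes and the 3 genes most like each of the 5. Some genes are not reported here.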

Additional observations from a re-analysis of the deposited data

Results flagged for a closer look

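Levels were compared within each group of 5 embryos for the 5 genes, the other genes named and the summed marker lists, and single libraries far from the other 4, by the share of the range that the gap to the next one took up, were found in 9 of 132 groups. If the groups were independent and met the assumptions of the rule, 6.60 such groups would be found by chance. The sums hold genes that were also compared singly, such as *Slc6a5*, *S100a9* and *Ntrk3*. The groups were thus not independent, and no conclusion is drawn from 9 against 6.60. The 9 included none of the 10 groups of *Hcn2*, *Hcn3*, *Hcn4*, *Hvcn1* and *Tmem266*. Control replicate 3 held 6 of the 9. Its spinal cord sum was 12.0 CPM (other control libraries 0.110 to 0.484) and *Slc6a5* was at 4.66 CPM (others 0 to 0.146), its connective tissue sum was 5757 CPM (others 4119 to 4460), and lower values were found for the sensory neuron sum at 7047 CPM (others 7497 to 7624), the proprioceptor sum at 462 CPM (others 574 to 618) and *Ntrk3* at 272 CPM (others 320 to 335). Leaving out control replicate 3, the log2 fold change of *Tmem266* was -0.31 and that of *Hcn3*, which was at 75.2 CPM in it, was -0.025. In *WD1* cKO replicate 3, *Slc6a5* was at 0.364 CPM (others 0 to 0.102). In *WD1* cKO replicate 2, *S100a9* was at 11.4 CPM (others 1.19 to 2.48) and the neutrophil sum at 23.0 CPM (others 2.91 to 4.59), and leaving it out gave *Hvcn1* a log2 fold change of 0.16.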

How the results depend on the processing

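Under 19 alternatives each, the log2 fold changes of *Hcn2* (0.052 to 0.14), *Hcn3* (-0.10 to -0.023), *Hcn4* (-0.13 to -0.051) and *Tmem266* (-0.34 to -0.27) kept their sign, and no member had an adjusted p-value under 0.05 (*Tmem266* from 0.434 to 1.00). *Hvcn1*, from -0.17 to 0.53 under 17 alternatives, turned to -0.17 within replicates 4 and 5 and was 0.16 to 0.47 with 1 library left out. It was not tested with a mean count of at least 100 or within replicates 1 to 3. The count of members past the study's cut-off, 1, was 0 with *Xist* as a covariate, 0 within replicates 1 to 3 and 0 within replicates 4 and 5, and 1 without any single library. Over all genes, the 67 past that cut-off with edgeR were 78 with DESeq2's Wald test, the tool that the study used. The 67 became 128 without the filter, 133 with the replicate block and 133 within replicates 4 and 5 (52 to 96 with 1 library left out). The 7 with an adjusted p-value under 0.05 became 19 with DESeq2's Wald test, 4 with *Xist* and 4 with the higher minimum of 100 counts on average. They became 3 within replicates 1 to 3, 2 within replicates 4 and 5 and 3 to 6 with 1 library left out. Smaller sets of libraries and genes enter some of these fits by construction, and otherwise the cause was not tested. Same-numbered libraries of the 2 groups deviated together with r from 0.320 to 0.390 in 4 of 5 pairs and 0.0404 for replicate 2, and 3 of 5 correlated best with their own number. Pairing was to be taken as given only with every pair above 0.1, and whether the numbers mark a shared litter or batch was not settled. The exact permutation tests ignore the numbers. With the replicate block *Tmem266* was at -0.31 (Benjamini-Hochberg adjusted p = 0.434 in edgeR). With the longest transcript in place of the union of exons, the per-kilobase level in control went from 1.52 to 1.62 CPM for *Tmem266* and from 0.126 to 0.160 CPM for *Hvcn1*. The median of HCN binding proteins, -0.026, was -0.074 within replicates 1 to 3, -0.023 within replicates 4 and 5 and -0.048 to -0.014 with 1 library left out. List medians changed sign in 0 of 19 alternatives for HCN binding proteins, 7 for cAMP pathway genes, 10 for cyclic nucleotide-gated channels, 3 for NADPH oxidase genes and 7 for sodium proton exchangers. *Hvcn1* rests on 6 to 20 reads per library.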
